A study of Mus musculus with 6 samples.

Results

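The genes described here are 10 regulators of the passage from G1 to S phase: the D-type cyclins Ccnd1, Ccnd2 and Ccnd3, the E-type cyclins Ccne1 and Ccne2, the kinases Cdk4 and Cdk6, and the inhibitors of cyclin-dependent kinases (CDKs) Cdkn1b, Cdkn2a and Cdkn2b. They were chosen by symbol, with earlier results of these data known, and each matched 1 of the 52636 Ensembl gene rows of the deposited counts. The study asked how mouse embryonic stem (ES) cells differentiate without Tnfaip2, and sequenced RNA from embryoid bodies, the cell aggregates in which ES cells begin to form the germ layers. One group is the parental ES line E14 (WT, 3 cultures) and the other is E14 carrying a CRISPR-Cas9 mutation of Tnfaip2 (Tnfaip2-/-, 3 cultures). Cells of both genotypes had spent 3 days in hanging drops and then 3 days plated on gelatin in MEF medium. The mutant is a single clone with a premature stop codon, so the 3 replicates show the spread between cultures and not between clones, and genotype cannot be told apart from other differences between that clone and its parent.

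In textbook outline, D-type cyclins bring growth signals to Cdk4 and Cdk6, which phosphorylate the retinoblastoma protein, and cyclin E with Cdk2 completes that step and frees E2F factors to switch on S-phase genes. Cip/Kip proteins such as p27 (Cdkn1b) bind whole cyclin-CDK complexes, while Ink4 proteins such as p16 (Cdkn2a) and p15 (Cdkn2b) bind Cdk4 and Cdk6 themselves. Mouse ES cells are known for a short G1, with little D-type cyclin and Ink4 protein and much cyclin E, and G1 lengthens as they differentiate.

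The libraries held 22987433, 22489903 and 23804489 counts in WT replicates 1 to 3, and 22480962, 21765931 and 21986960 counts in Tnfaip2-/- replicates 1 to 3. Mitochondrial genes took 2.56%, 2.52% and 2.55% of the WT counts and 2.20%, 2.28% and 2.27% of the Tnfaip2-/- counts. Replicates were close to counting noise. Over 13892 genes with a mean of at least 50 counts, the squared difference between a pair of libraries, in units where counting noise alone gives 1, was 1.4 to 2.09 within a group, and 56.8 to 60.9 between the groups. With so little spread, differences of a few percent pass a test, so sizes carry more than calls in what follows. Tnfaip2 had 7, 4 and 7 counts in the WT libraries and 0, 2 and 2 counts in the Tnfaip2-/- libraries. The targeted RNA was therefore scarce in both genotypes, with a Tnfaip2-/- to WT ratio of 0.228 (95% interval 0.0561 to 0.692, exact and for counting error only). In a fit without the expression filter it fell by 2.05 on the log2 scale (SE 0.695, adjusted p = 0.0133 by edgeR's quasi-likelihood test, with 0.00121 to 0.0923 over the alternatives tried).

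Markers of pluripotent cells were abundant in both groups. The 6 general pluripotency genes summed to 2790, 2730 and 2790 counts-per-million (CPM) in WT and 1910, 1940 and 1920 CPM in Tnfaip2-/- cultures, with Dppa5a the most abundant per length. Of these, 4 were lower and 1, Sox2, was higher (log2 difference 0.23). The 8 genes of naive pluripotent cells summed to 994, 995 and 996 CPM in WT and 1320, 1320 and 1340 CPM in Tnfaip2-/- cultures, with Zfp42 the most abundant per length in both, but the list went both ways: 5 were higher and 3 lower, with log2 differences from 2.67 for Dppa3 to -1.45 for Tbx3 and -1.49 for Klf4. Summed levels of primed, streak and neural markers were lower in the mutant. The 6 primed genes gave 970, 971 and 967 against 494, 486 and 486 CPM, with 5 of them lower. Most of that gap was Dnmt3b (mean 598 against 173 CPM), the most abundant in WT, while Otx2, the most abundant in the mutant, was not called (224 against 223 CPM). The 6 genes of primitive streak and mesoderm, all lower, gave 88.2, 87.2 and 86.9 against 21.4, 18.8 and 22.5 CPM, and T, the most abundant in WT, was at 5, 3 and 1 counts in the mutant, where Eomes made up most of the sum (mean 28.4 against 18.5 CPM, a log2 difference of -0.62). The 6 neural genes, led by Sox1, gave 107, 107 and 100 against 46.8, 45 and 46.2 CPM, while Neurog2 had 1, 0 and 0 counts in WT and 0 in the mutant. Of the other lists, 6 primitive endoderm genes, led by Dab2, gave 70.3, 69.8 and 70.9 against 63.7, 61.4 and 64.6 CPM, with 3 lower and 1, Sox17, higher (log2 difference 0.45). The 6 trophoblast genes gave 40.3, 37.6 and 39.2 against 186, 184 and 187 CPM, a rise of the sum that came from Tfap2c (mean 21.7 against 171 CPM), the most abundant per length in the mutant, as Krt8 was in WT. Of the 4 tested, 2 were higher and 2 lower: Cdx2 fell from 42, 37 and 28 counts to 1, 2 and 0, and Krt8 itself fell by 0.19 on the log2 scale, while Elf5 stayed at 3 counts or fewer in each library. The 6 fibroblast genes, led by Thy1, were low at 8.65, 9.96 and 8.6 against 5.81, 6.3 and 6.85 CPM (2 of the 4 tested were lower, and Thy1 was not called), with Postn at 2, 2 and 4 counts in WT and 0 in the mutant. Levels of these marker RNAs differ between the groups together with the G1 genes below, and their part in the G1 results was not tested. In bulk RNA, fewer cells of a kind and less RNA per cell cannot be told apart.

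All 10 members passed the filter on low counts, but Cdkn2b did so only through the Tnfaip2-/- cultures, where it was higher. A gene as scarce as Cdkn2b in both groups would not have been tested. The Tnfaip2-/- cultures held less RNA of Ccnd1, Ccnd2, Cdk4 and Cdk6, slightly less of Ccne1 and Cdkn1b, and more of Cdkn2a and Cdkn2b, while Ccnd3 and Ccne2 did not pass the test. That makes 8 of 10 members called, against 67.7% of the 17849 genes tested, a share that by itself says little about the members. Lower calls numbered 6 of 10, against 33.7% of all genes, and higher calls 2 of 10, against 34% of all genes. Of the members, 5 of 10 were called and at least 2-fold apart, against 12% of all genes, and since they were chosen with earlier results known, nothing is read from that excess. The groups did not overlap in 8 of 10 members, against 69.4% of all genes. The median log2 difference (Tnfaip2-/- minus WT) was -0.26 over the members and 0 over all tested genes, and the median of its absolute size was 1.02 and 0.3.

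**Figure D1:**
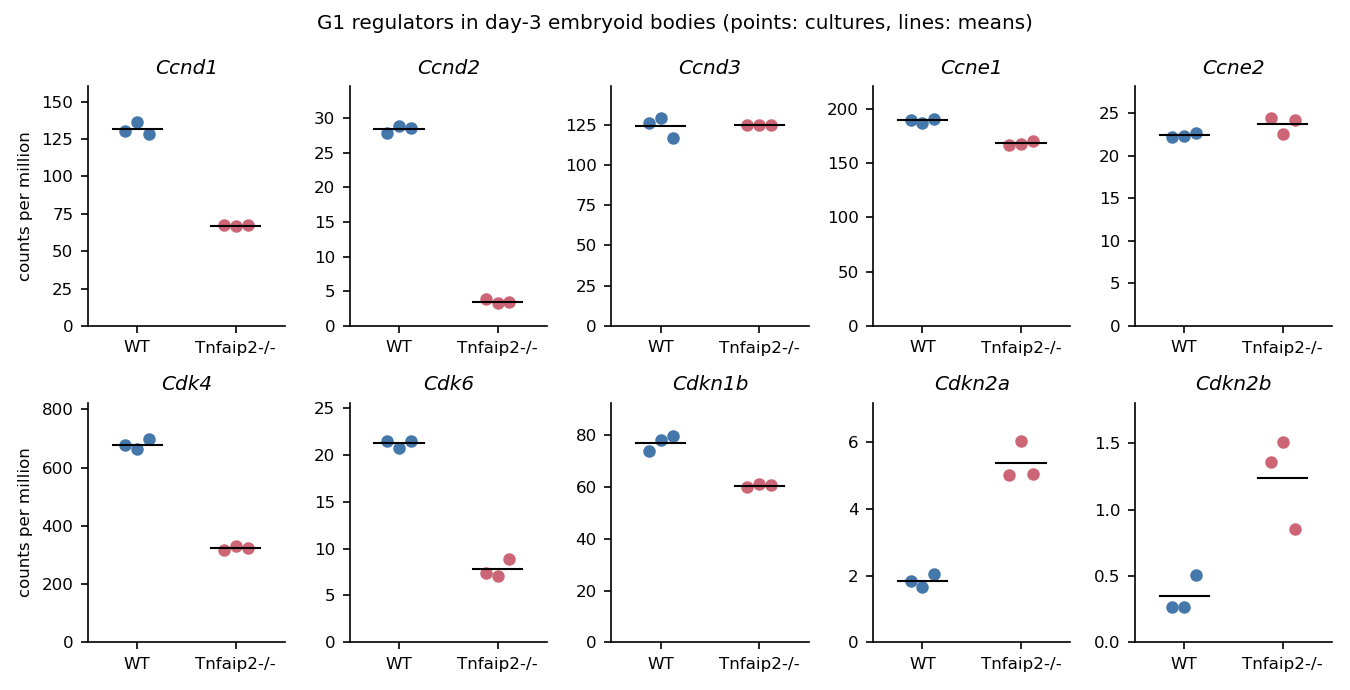
CPM of each member (y axis, from 0) in the 3 WT and 3 Tnfaip2-/- cultures (points) with group means (lines). The groups are apart in every panel except Ccnd3 and Ccne2, from 663 to 697 against 318 to 330 CPM for Cdk4 down to 0.265 to 0.511 against 0.857 to 1.51 CPM for Cdkn2b.

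Among the D-type cyclins, Ccnd2 changed most. Ccnd2 (ENSMUSG00000000184), a partner of Cdk4 and Cdk6 whose use varies by tissue, stood at 27.8, 28.8 and 28.6 CPM in WT and at 3.87, 3.24 and 3.43 CPM in Tnfaip2-/- cultures. Every WT value was far above every mutant value. It fell by 3.01 on the log2 scale (SE 0.0822, adjusted p = 9.52e-33 by edgeR's quasi-likelihood test), which made WT 8.07-fold higher. Ccnd1 (ENSMUSG00000070348), the D-type cyclin best known as a target of growth factor signals, stood at 130, 136 and 128 CPM in WT and at 67.3, 66.5 and 67.6 CPM in Tnfaip2-/- cultures. Its groups were also well apart, and it fell by 0.97 on the log2 scale (SE 0.0336, adjusted p = 1.42e-28 by edgeR's quasi-likelihood test). Ccnd3 (ENSMUSG00000034165), the remaining D-type cyclin, stood at 126, 129 and 117 CPM in WT and at 125, 125 and 125 CPM in Tnfaip2-/- cultures. The mutant values lay inside the WT range. The log2 difference of Ccnd3 was 0.01 (95% interval -0.06 to 0.08, adjusted p = 0.79 by edgeR's quasi-likelihood test), and its sign turned without the filter (-0.01) and without WT replicate 3 (-0.04).

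The make-up of the D-type family therefore differed between the genotypes. Levels of different genes are compared here as CPM per kilobase of exon sequence. On that scale the D-type cyclins together summed to 45, 46.6 and 43.5 in WT and to 28.9, 28.7 and 28.9 in Tnfaip2-/- cultures, a mutant to WT ratio of 0.641. Ccnd1 made up 61.9% ± 0.507 of that sum in WT (SD, n = 3) and 49.4% ± 0.238 in Tnfaip2-/- cultures, and Ccnd3 made up 31.4% ± 0.749 and 49.3% ± 0.298. Ccnd2 was the least abundant in both groups and went from 6.71% ± 0.253 to 1.29% ± 0.116. Ccnd1 thus led in WT and was level with Ccnd3 in the mutant. With the longest transcript as gene length the Ccnd3 share was 44.8% in WT and 63.6% in Tnfaip2-/- cultures, so Ccnd3 then led in the mutant, and the direction of each share's difference was the same. The D-type sum was then 71.7 in WT and 50.9 in Tnfaip2-/- cultures, again lower in the mutant.

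The E-type cyclins moved little. Ccne1 (ENSMUSG00000002068), an activator of Cdk2 at the start of S phase, stood at 190, 187 and 191 CPM in WT and at 167, 168 and 170 CPM in Tnfaip2-/- cultures. The groups did not overlap, but the gap was small: it fell by 0.17 on the log2 scale (SE 0.0274, adjusted p = 6.11e-07 by edgeR's quasi-likelihood test), and it was not called against a fold of 1.5. Ccne2 (ENSMUSG00000028212), which has the same role, stood at 22.2, 22.3 and 22.7 CPM in WT and at 24.4, 22.6 and 24.2 CPM in Tnfaip2-/- cultures. Its groups overlapped, and the log2 difference of 0.08 had a 95% interval of -0.03 to 0.2 (adjusted p = 0.187 by edgeR's quasi-likelihood test). In CPM per kilobase Ccne1 made up 91.7% of the E-type sum in WT and 90.3% in Tnfaip2-/- cultures. The E-type sum was 77.6, 76.7 and 78.2 in WT and 69.7, 69.5 and 71 in Tnfaip2-/- cultures. Since the D-type sum fell further, the ratio of E-type to D-type level was 1.72 ± 0.0774 in WT (SD, n = 3) and 2.43 ± 0.022 in Tnfaip2-/- cultures. With the longest transcript as gene length that ratio was 1.42 in WT and 1.81 in Tnfaip2-/- cultures.

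**Figure D2:**
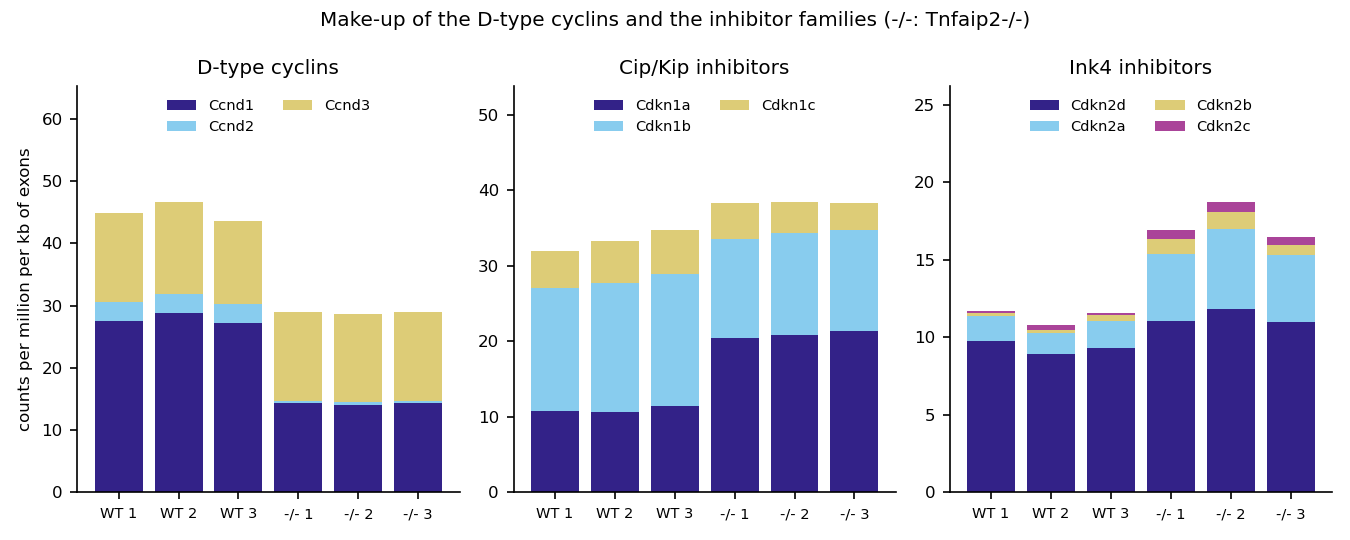
Stacked CPM per kilobase of exon sequence (y axis, from 0) of the D-type cyclins, the Cip/Kip inhibitors and the Ink4 inhibitors in each culture. The D-type sum is lower in the mutant (28.7 to 28.9 against 43.5 to 46.6) with Ccnd3 bars of like height, while the Ink4 sum is higher (16.5 to 18.7 against 10.8 to 11.7).

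Both kinases of the D-type cyclins fell. Cdk4 (ENSMUSG00000006728), the most abundant member in both groups, stood at 676, 663 and 697 CPM in WT and at 318, 330 and 323 CPM in Tnfaip2-/- cultures. Every mutant culture held less than the lowest WT culture, and Cdk4 fell by 1.07 on the log2 scale (SE 0.0251, adjusted p = 2.73e-35 by edgeR's quasi-likelihood test), a 2.1-fold higher level in WT. Cdk6 (ENSMUSG00000040274), the other kinase that D-type cyclins activate, stood at 21.5, 20.7 and 21.5 CPM in WT and at 7.39, 7.12 and 8.84 CPM in Tnfaip2-/- cultures. Its groups were apart too, and it fell by 1.45 on the log2 scale (SE 0.0755, adjusted p = 7.83e-22 by edgeR's quasi-likelihood test). In CPM per kilobase Cdk4 exceeded Cdk6 by a factor of 137 ± 2.1 in WT (SD, n = 3) and 181 ± 21.3 in Tnfaip2-/- cultures. Together they summed to 209, 205 and 216 in WT and to 98.4, 102 and 100 in Tnfaip2-/- cultures, nearly all of it Cdk4. With the longest transcript as gene length the sum was 332 in WT and 158 in Tnfaip2-/- cultures. Cdk4 ranked above 98% of tested genes by CPM per kilobase of exon sequence in WT and above 95.7% in the mutant.

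RefSeq promoters (build GRCm38.p6) were at hand for 7 of 10 members, with 9 start sites among them, and not for Ccnd1, Ccnd2 or Ccne2. The 250 bases before each start were searched on both strands for an E-box (CACGTG), the letters that Myc-Max and related factors bind, and for an E2F-type motif (TTTNNCGC). Both motifs were chosen after these promoters and the fold changes had been seen, and the pair do not overlap in any promoter printed. An E-box occurred in 6.02% of all 32841 promoters and the E2F letters in 4.28%. Cdk4 held 4 E-boxes, beginning at positions -172, -118, -98 and -11, where -1 is the last base before the start. Of 32841 promoters, 7 held 4 or more (0.0213%). As the motif was chosen with the Cdk4 promoter already seen, that share is descriptive and tests nothing. Cdk6, the other kinase that fell, held 1 E-box and 1 match to the E2F letters. The promoters of both kinases are printed 5′ to 3′ because these genes moved together, with matches in capitals. That of Cdk4 is chr10:127063285-127063534 on the + strand, and that of Cdk6 is chr5:3343643-3343892 on the + strand.
Cdk4: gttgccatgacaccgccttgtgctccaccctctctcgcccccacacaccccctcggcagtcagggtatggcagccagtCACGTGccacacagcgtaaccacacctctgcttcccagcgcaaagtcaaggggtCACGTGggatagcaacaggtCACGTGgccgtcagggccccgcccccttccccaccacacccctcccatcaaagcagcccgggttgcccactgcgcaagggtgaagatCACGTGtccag
Cdk6: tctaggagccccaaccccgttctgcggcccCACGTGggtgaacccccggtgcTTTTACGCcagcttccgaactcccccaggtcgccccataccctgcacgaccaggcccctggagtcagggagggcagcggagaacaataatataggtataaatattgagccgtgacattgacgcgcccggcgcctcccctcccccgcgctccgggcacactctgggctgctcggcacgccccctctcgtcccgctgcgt

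**Figure D3:**
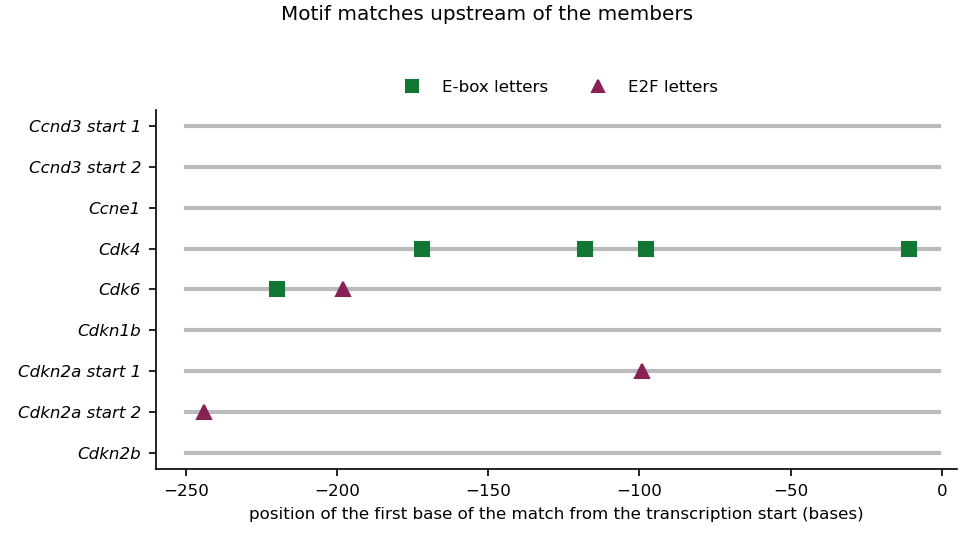
First base of each match to the E-box letters (squares) and the E2F letters (triangles) in the 250 bases before the 9 annotated starts of members (x axis, bases from the start). Cdk4 carries 4 E-box matches, at -172, -118, -98 and -11, Cdk6 has 1 of each kind, and 5 of the 9 lines are empty.

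The inhibitors did not move as a block. Cdkn1b (ENSMUSG00000003031), which encodes the Cip/Kip protein p27, stood at 73.9, 78 and 79.6 CPM in WT and at 59.9, 61 and 60.8 CPM in Tnfaip2-/- cultures. The groups did not overlap, and it fell by 0.35 on the log2 scale (SE 0.0374, adjusted p = 2.44e-11 by edgeR's quasi-likelihood test), a change that was not called against a fold of 1.5. Its relative Cdkn1a, which encodes the p53 target p21, went the other way: 38.4, 37.8 and 40.8 CPM in WT and 72.6, 74.3 and 76.1 CPM in Tnfaip2-/- cultures. It rose by 0.93 on the log2 scale (SE 0.0408, adjusted p = 1.14e-24 by edgeR's quasi-likelihood test). The imprinted gene Cdkn1c (p57) fell by 0.39 on the log2 scale (SE 0.0896, adjusted p = 0.000203 by edgeR's quasi-likelihood test). Per kilobase, Cdkn1b made up 50.8% ± 0.579 of the Cip/Kip sum in WT (SD, n = 3) and 34.7% ± 0.288 in Tnfaip2-/- cultures, and Cdkn1a made up 32.9% ± 0.896 and 54.5% ± 1.29. Cdkn1b thus led in WT and Cdkn1a in the mutant. With the longest transcript as gene length Cdkn1a led in both groups, with 45.2% in WT and 66.8% in Tnfaip2-/- cultures. The sum itself differed less, at 32.1, 33.3 and 34.8 in WT and 38.3, 38.5 and 38.4 in Tnfaip2-/- cultures per kilobase of exon sequence. By longest transcript the gap was wider, at 41.5 in WT and 53.5 in Tnfaip2-/- cultures.

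Both Ink4 members rose from low levels. Cdkn2a (ENSMUSG00000044303), whose alternative first exons give the CDK inhibitor p16 and the p53 activator p19Arf, had 42, 37 and 48 counts (1.85, 1.65 and 2.04 CPM) in WT and 114, 132 and 112 counts (5.02, 6.03 and 5.05 CPM) in Tnfaip2-/- cultures. Every mutant value was above every WT value. It rose by 1.53 on the log2 scale (SE 0.144, adjusted p = 5.3e-13 by edgeR's quasi-likelihood test), and gene counts do not separate its p16 and p19Arf transcripts. Cdkn2b (ENSMUSG00000073802), which encodes p15, had 6, 6 and 12 counts (0.265, 0.268 and 0.511 CPM) in WT and 31, 33 and 19 counts (1.36, 1.51 and 0.857 CPM) in Tnfaip2-/- cultures. The highest WT culture and the lowest mutant culture came close without meeting. Cdkn2b passed the filter on low counts only through the mutant cultures, and its log2 difference was 1.79 in the fit without that filter. It rose by 1.81 on the log2 scale with the widest error of the members (SE 0.317, 95% interval 1.17 to 2.45, adjusted p = 2.39e-06 by edgeR's quasi-likelihood test). The Ink4 genes outside the member list also rose. Cdkn2c (p18) had 8, 19 and 9 counts in WT and 36, 39 and 34 counts in Tnfaip2-/- cultures, a rise of 1.63 on the log2 scale (SE 0.268, adjusted p = 8.06e-07 by edgeR's quasi-likelihood test). It also passed the filter only through the mutant cultures, and rose by 1.61 without the filter. Cdkn2d (p19Ink4d) rose by 0.28 (SE 0.0662, adjusted p = 0.000303 by edgeR's quasi-likelihood test). Cdkn2d was the bulk of the Ink4 sum per kilobase, 82.2% ± 1.59 in WT (SD, n = 3) and 65.1% ± 1.76 in Tnfaip2-/- cultures. The sum of these 4 genes was 11.7, 10.8 and 11.6 in WT and 16.9, 18.7 and 16.5 in Tnfaip2-/- cultures, still below the Cdk4 level in each group.

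Cdkn2a has a start for each first exon, printed here 5′ to 3′ because the gene counts cannot tell which was used, with matches to the E2F letters in capitals. Each promoter held 1 match, at position -99 from the p19Arf start (chr4:89294620-89294869, - strand) and at -244 from the p16 start (chr4:89282193-89282442, - strand). No E-box letters were present in either window, and the single promoter of Cdkn2b held neither motif.
Cdkn2a, p19Arf start: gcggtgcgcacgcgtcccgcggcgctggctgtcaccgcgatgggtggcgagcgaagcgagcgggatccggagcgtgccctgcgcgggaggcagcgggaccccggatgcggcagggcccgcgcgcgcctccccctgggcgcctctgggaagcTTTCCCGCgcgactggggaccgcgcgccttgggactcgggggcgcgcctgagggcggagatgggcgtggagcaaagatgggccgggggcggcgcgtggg
Cdkn2a, p16 start: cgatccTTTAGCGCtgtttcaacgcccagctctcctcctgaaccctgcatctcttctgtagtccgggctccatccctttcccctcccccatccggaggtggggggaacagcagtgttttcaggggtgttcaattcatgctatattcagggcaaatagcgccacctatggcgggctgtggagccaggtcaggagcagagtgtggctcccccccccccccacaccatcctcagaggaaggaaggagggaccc

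Cdkn2a and Cdkn2b lie side by side on chromosome 4, and the nearest tested genes changed by much less. Mtap, a methionine salvage enzyme and the nearest tested protein-coding gene on one side, stood at 70.2, 69.6 and 70.4 CPM in WT and 76.1, 74.2 and 72.5 CPM in Tnfaip2-/- cultures. Its log2 difference of 0.08 passed (adjusted p = 0.0354 by edgeR's quasi-likelihood test) but lost the call in 10 of 17 alternatives, with adjusted p from 0.00603 to 0.189 over those that test for any change. On the other side the nearest tested gene was Elavl2, an RNA-binding protein of neurons 1940 kilobases from Cdkn2b, which rose by 0.27 on the log2 scale (adjusted p = 3.26e-05 by edgeR's quasi-likelihood test). Within 1000 kilobases of the pair the other tested protein-coding genes were Klhl9 and Hacd4, which rose by 0.19 and 0.82 on the log2 scale. Around all members together, 15 of 17 nearest tested genes were called (67.7% of all genes), 8 higher and 7 lower, with a median log2 difference of -0.01. Trp53inp1, a p53 target 17 kilobases from Ccne2, was the only one past 2-fold and rose by 1.94 on the log2 scale (adjusted p = 1.06e-42 by edgeR's quasi-likelihood test), while Ccne2 itself did not pass the test. By whole chromosome, the median log2 difference of tested genes was 0.03 on chromosome 4 (Ccne2, Cdkn2a and Cdkn2b), 0.09 on chromosome 7 (Ccnd1 and Ccne1), -0.01 on chromosome 6 (Ccnd2 and Cdkn1b), -0.18 on chromosome 10 (Cdk4), -0.21 on chromosome 5 (Cdk6) and -0.25 on chromosome 17 (Ccnd3). Of all tested genes, 12% were called and at least 2-fold apart, so setting single members against such medians tests nothing.

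**Figure D4:**
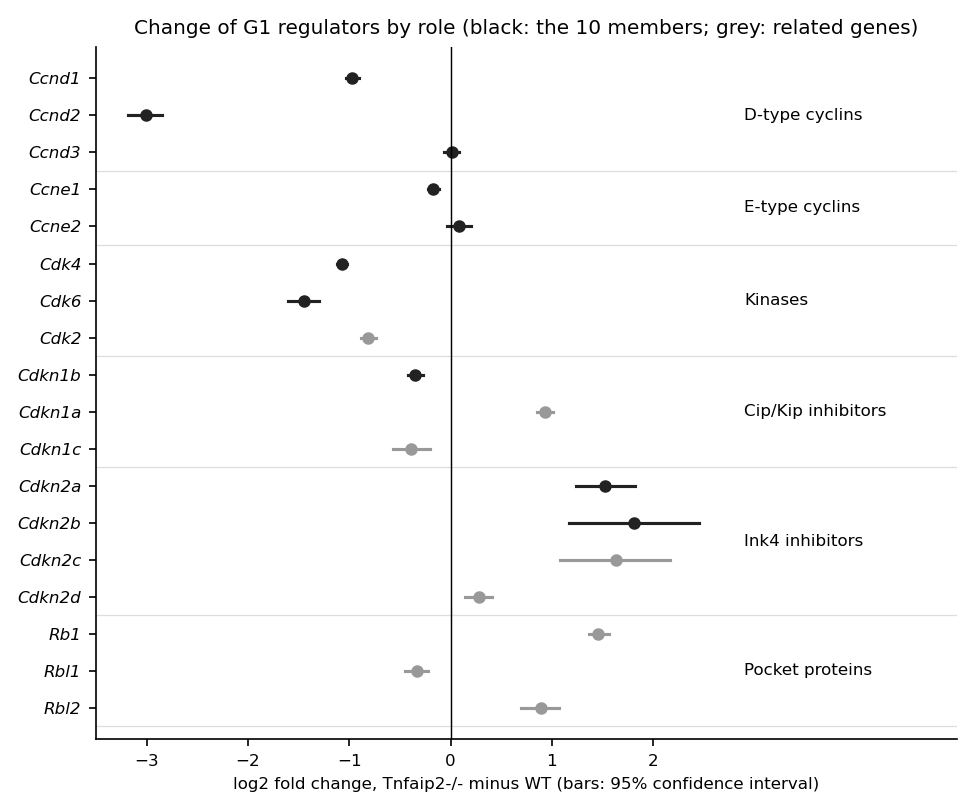
Log2 fold change (x axis, Tnfaip2-/- minus WT) with 95% confidence interval for the 10 members (black) and related genes (grey), by role. Ccnd2 lies farthest to the left at -3.01, the kinases Cdk4 and Cdk6 at -1.07 and -1.45, and the Ink4 genes to the right, from 0.28 for Cdkn2d to 1.81 for Cdkn2b.

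Placed in one order by CPM per kilobase, the members ran in WT from Cdk4 (209) through Ccne1 (71.1), Ccnd1 (27.9), Cdkn1b (17), Ccnd3 (14.1), Ccne2 (6.41), Ccnd2 (3.02), Cdkn2a (1.58) and Cdk6 (1.52) to Cdkn2b (0.25). Among neighbours in that order, Cdkn2a and Cdk6 did not differ beyond their spread over the WT cultures. In Tnfaip2-/- cultures the order was Cdk4 (99.7), Ccne1 (63.3), Ccnd1 (14.3), Ccnd3 (14.2), Cdkn1b (13.3), Ccne2 (6.79), Cdkn2a (4.58), Cdkn2b (0.894), Cdk6 (0.556) and Ccnd2 (0.373). There Ccnd1 and Ccnd3 did not differ beyond their spread, and the values of Cdkn2b and Cdk6 overlapped. Ccnd2 moved from above Cdkn2a in WT to the last place in the mutant. With the longest transcript as gene length the Ccnd3 level was 32.2 in WT and 32.4 in Tnfaip2-/- cultures, so Ccnd3 then stood above Cdkn1b in WT and above Ccnd1 in the mutant.

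Some members share exon sequence with a gene on the opposite strand, and the library kit does not mark strand. Exons of Ccnd1 overlap those of LTO1 over 1100 bases (23.4% of its exon bases), those of Cdk4 overlap Tspan31 over 641 bases (19.7%), and those of Ccne2 overlap Ints8 over 609 bases (17.4%). Smaller overlaps were those of Ccnd2 with 9330179D12Rik (3.91%) and Gm43126 (3.95%), Ccnd3 with Bysl (4.11%) and Cdk6 with Gm17590 (2.63%). LTO1 rose by 0.58 and Tspan31 fell by 0.68 on the log2 scale, and how reads in the shared exons were assigned is not stated. Annotated transcripts of Ccne1, Cdkn1b, Cdkn2a and Cdkn2b shared none of their windows of 51 bases, the read length, with any other gene. Among the other CDK inhibitors, exons of Cdkn1c overlap Gm44732 on the opposite strand over 625 bases (30.7%). Those of Cdkn1a overlap AC167363.2 over 273 bases (7.68%).

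The rest of the pathway was listed by role. The counts that follow stand against 34% of all genes higher and 33.7% lower, and differences between lists were not tested. Among 9 other components of the G1 to S kinases, 5 were higher and 3 lower (median log2 difference 0.1). Cdk2, the kinase of the E-type cyclins, had their largest fall: 107, 104 and 106 CPM in WT and 59, 61 and 60.7 CPM in Tnfaip2-/- cultures, a log2 difference of -0.81 (SE 0.0347, adjusted p = 3.76e-25 by edgeR's quasi-likelihood test). The largest rise was that of Ccna1, an A-type cyclin of germ cells, from 5, 6 and 12 counts in WT to 33, 29 and 35 counts (log2 difference 2.1, SE 0.298). Ccna1 passed the filter on low counts only through the mutant cultures, and rose by 2.08 without that filter. Ccna2, the S-phase cyclin with the highest level per kilobase of the list, fell by 0.36 on the log2 scale. Of 13 pocket proteins and E2F-DP factors, 10 were lower and 2 higher (median -0.3). The 3 pocket proteins, the substrates of Cdk4 and Cdk6, went both ways: Rb1 stood at 20.2, 21.5 and 21.8 CPM in WT and at 57.8, 58.5 and 58.8 CPM in Tnfaip2-/- cultures (log2 difference 1.46, SE 0.0472, adjusted p = 7.39e-30 by edgeR's quasi-likelihood test), Rbl2 rose by 0.89, and Rbl1 fell by 0.33 (adjusted p = 1.52e-06 by edgeR's quasi-likelihood test). The repressor E2f8 had the largest fall (log2 difference -0.54), and E2f4, which pairs with pocket proteins in resting cells, had the highest level (-0.32).

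Of 20 E2F target genes of S phase, 16 were lower and 0 higher by edgeR (0 higher also at an unadjusted p under 0.05, by DESeq2 and by limma), with a median log2 difference of -0.22 against 0 for all genes. In 4 of 17 alternatives 1 of them was called higher: Mcm6, a helicase subunit, at a log2 difference of 0.05 and adjusted p = 0.0726 in the main fit, was called with upper-quartile factors, with library sizes alone, with the filter at 1 CPM and without Tnfaip2-/- replicate 2. Gins2, part of the replicative helicase, was the only one of them past 2-fold, at 99.6, 93.4 and 96 CPM in WT and 39, 40 and 38.4 CPM in Tnfaip2-/- cultures (log2 difference -1.3, SE 0.0389). Mcm5, another helicase subunit and the most abundant of the list per kilobase, fell by 0.14 on the log2 scale. Of 12 mitotic genes, 7 were higher and 4 lower (median 0.18), and 0 were called against a fold of 1.5 (edgeR, 0 also at an unadjusted p under 0.05, with 11 called for any change by DESeq2 and by limma). The DNA-untangling enzyme Top2a rose by 0.52, the centromere histone Cenpa fell by 0.41, and Cdc20, which activates the anaphase-promoting complex and had the highest level per kilobase in WT (in the mutant Ccnb2 did), fell by 0.29, each on the log2 scale. Of 10 genes for the breakdown of cyclins and p27, 3 were higher and 5 lower (median -0.04). Skp1a, a core subunit of the SCF ubiquitin ligases and the most abundant of these, rose by 0.72, and Cks1b, the cofactor with which Skp2 marks p27, fell by 0.7 on the log2 scale.

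Among 22 transcriptional regulators of the members, 10 were higher and 6 lower (median log2 difference 0.07). Myc, which acts through E-boxes such as those printed for Cdk4, had the largest fall, from 22.3, 23.8 and 23.5 CPM in WT to 9.37, 9.31 and 9.78 CPM in Tnfaip2-/- cultures (log2 difference -1.29, SE 0.0681, adjusted p = 1.26e-21 by edgeR's quasi-likelihood test). Its relative Mycn was far more abundant in both groups and fell less, from a mean of 185 to 118 CPM (log2 difference -0.65, SE 0.0295, adjusted p = 4.85e-24 by edgeR's quasi-likelihood test). Smad3, which carries activin, Nodal and TGF-beta signals, had the largest rise at 0.54, and the Wnt effector Ctnnb1, the most abundant per kilobase, rose by 0.2 on the log2 scale. No binding was measured in these samples, and what Myc or Mycn has to do with Cdk4 here was not tested.

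**Figure D5:**
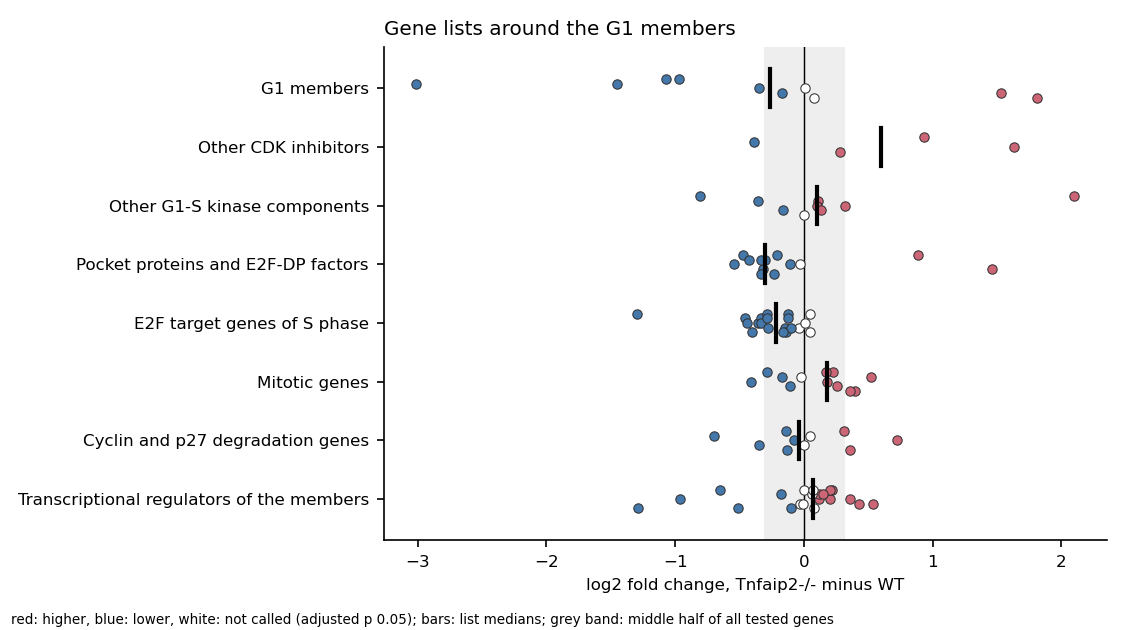
Log2 fold change (x axis, Tnfaip2-/- minus WT) of each gene in the 8 lists, red where higher, blue where lower and white where not called, with list medians as bars and the middle 50% of all tested genes (-0.3 to 0.31) as a grey band. The members reach from -3.01 to 1.81, while the E2F targets other than Gins2 (-1.3) lie between -0.46 and 0.05.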

How the data were processed

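RNA of 6 embryoid body cultures was sequenced with an unstranded kit in single reads of 51 bases. The authors aligned reads with TopHat2 2.1.0 and counted them per Ensembl gene with featureCounts 1.5.0, and the deposited values are raw counts for 52636 genes. Whether counting used strand is not given, so overlapping genes on opposite strands cannot be told apart. The labels give 300 cells in drops of 30 µl, and the methods of the study differ on both. Counts were filtered with edgeR 4.0.16 (filterByExpr, minimum count 10), scaled by TMM and tested by its quasi-likelihood test over all 17849 genes kept, calling genes at a Benjamini-Hochberg adjusted p under 0.05, in R 4.3.3. The filter can be met through a single group, as it was for Cdkn2b, Cdkn2c and Ccna1. DESeq2 1.42.0 and limma 3.58.1 were alternatives. CPM uses TMM-scaled library sizes. Gene positions and exon lengths are from GENCODE M21 (GRCm38). The procedure was tested on simulated counts in which few genes changed, so its behaviour where most genes differ, as here, was not tested. Members and lists were chosen with earlier results of these data known. Named genes are all members, the other CDK inhibitors, the called gene with the largest rise and fall and the most abundant gene of each longer list, Tnfaip2, the most abundant marker of each cell type and markers at 0, and the nearest tested protein-coding genes of the Cdkn2a and Cdkn2b locus, with those of the other members counted as a group. Rbl1, Rbl2, Mcm6, Mycn, Ccnb2, Sox2, Sox17, Dppa3, Klf4, Tbx3, Otx2, Eomes, Cdx2, Krt8, Elf5, Trp53inp1, Klhl9, Hacd4 and the genes sharing exons with members or with other CDK inhibitors were named after their values were seen.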

Additional observations from a re-analysis of the deposited data

How the results depend on the processing

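Over the normalizations, tools, filters, thresholds and left-out replicates tried, the count of members called was 7 or 8, and 6 in the test against a fold of 1.5. Cdkn2b did not reach 1 CPM in 3 samples and so was not tested under the strictest filter. Of 169 member values, 165 had an unchanged direction and an unchanged call. Ccne1 and Cdkn1b lost the call in the test against a fold of 1.5, and Ccnd3 changed sign without the filter (-0.01) and without WT replicate 3 (-0.04), with a range of -0.04 to 0.04 without single replicates. That test also gave 2798 genes called in all, against 12084. It called 2 of the other CDK inhibitors, 2 other kinase components, 2 pocket and E2F-DP genes, 1 E2F target, 2 degradation genes, 3 regulators and 0 mitotic genes (edgeR, 0 also at an unadjusted p under 0.05, and 11 by DESeq2 and by limma for any change). It asks for a larger change, so fewer genes can pass. Over the other alternatives 10268 to 12676 genes were called in all. The ranges were 6 to 8 other kinase components, 16 to 17 E2F targets, 7 to 8 degradation genes and 13 to 18 regulators. Counts of the other CDK inhibitors, the pocket and E2F-DP genes and the mitotic genes did not move there. Tnfaip2, with 22 counts in all, lost its call with DESeq2 (-2.13), against a fold of 1.5 (-2.05) and at 0.01 (-2.05), and its log2 difference ran from -2.43 to -1.5 without single replicates, with the call lost without WT replicate 1 (-1.93), WT replicate 3 (-1.95) or Tnfaip2-/- replicate 1 (-1.5). Same-numbered samples did not deviate together (r from -0.0562 to -0.0541 across genes, against 0.0169 to 0.0388 for other pairs), so no sample correlated best with its own number. With the replicate number as a block (replicate block) 11841 genes were called and 8 of the members. Levels per kilobase depend on the gene length used. Tnfaip2, Cdkn2b, Cdkn2c and Ccna1 had under 40 counts in each library, which limits the precision of their log2 differences.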
